A study of Mus musculus with 32 samples.

Results

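Gliomas of a mouse model that carries mutations of p53 and Nf1 were compared with normal forebrain on expression arrays. The comparison held 12 of the 32 arrays of the series, chosen by their labels as set Z1: 9 gliomas and 3 forebrains. The gliomas, here numbered 1 to 9, came from hGFAP-cre;p53KO/+;Nf1+/flox mice, which carry 1 null allele of p53, 1 floxed allele of Nf1 and a Cre recombinase driven by the human GFAP promoter. The series' design text names this model a conditional cis-p53/Nf1 mutation. The forebrains are labelled normal, and the extraction protocol speaks of wild-type control tissue. The labels give no age, no strain and no word on whether each glioma came from its own animal. The p-values therefore measure the spread between arrays within groups, pooled over the 6 groups and all 32 arrays of the series. Total RNA was labelled with biotin and hybridised to Affymetrix mouse arrays, and the deposited values are log2 intensities.

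The p53 protein halts the cell cycle or triggers cell death after DNA damage, and neurofibromin, the product of Nf1, switches RAS off. Gliomas that lack both often resemble glial progenitors, divide, and stand in a tissue in which mature neurons supply much of the RNA. In a comparison of such a tumour with whole forebrain, division genes on one side and synapse and channel genes on the other can be prominent. The results below turn to the other functions: the handling of RNA and protein, metabolism, second messengers, cell surface, interferon-inducible defence, and nuclear regulators. In bulk tissue, fewer cells of a type and less RNA per cell cannot be told apart.

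The targeted genes did not separate the groups. Nf1 read between 7.64 and 8.43 in the gliomas and 7.86, 7.77 and 8.08 in the forebrains (difference 0.07, SE 0.17, adjusted p = 0.785 in limma). Trp53 read between 7.48 and 8.36 in the gliomas and 8.63, 8.03 and 8.12 in the forebrains (difference -0.34, SE 0.21, adjusted p = 0.211). Whether the probes of either gene lie in a deleted part is not stated in the labels, so these values check nothing about the alleles.

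Markers of cell types were read next. All 12 neuron markers were lower in the gliomas, with a mean of 7.31 to 9.54 against 12.29 to 12.51 in the forebrains. Of 12 markers of oligodendrocyte progenitors, 11 were higher (10.88 to 12.67 against 9.21 to 9.77), while 8 of 11 astrocyte markers were lower (8.54 to 11.03 against 11.24 to 11.62). Of 12 microglia and macrophage markers, 7 were higher and 1 lower (9.57 to 10.88 against 9.35 to 9.88), and 8 of 12 markers of myelinating oligodendrocytes were lower (8.36 to 10.24 against 9.92 to 12.27). The means of T and NK cell markers lay in a like low range in both groups (6.72 to 7.01 and 6.76 to 7.01). Glioma 8 had the lowest mean of the progenitor markers (10.88), still above every forebrain, and the highest mean of the astrocyte markers (11.03). Sox10, a transcription factor of the oligodendrocyte lineage, read 8.69 there and at least 11.90 in the other gliomas. Pdgfra, the receptor that marks oligodendrocyte progenitors, read 9.75 there and at least 12.29 in the others.

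A gene was called different at a Benjamini-Hochberg adjusted p under 0.05 in limma, over 17297 genes. By this rule 7290 genes, or 42.1%, differed between glioma and forebrain: 3783 were higher in glioma (21.9%) and 3507 lower (20.3%). At least a 2-fold difference was seen for 1864 of the higher and 1974 of the lower genes. The median difference over all genes was -0.0006 on the log2 scale. Lists of 264 measured division genes and 402 measured synapse, channel and neuron genes together held 200 of the higher and 276 of the lower calls, which left 3583 higher and 3231 lower genes outside them. Without glioma 8, 7411 genes were called. Without forebrain 1, 2 or 3 the number was 5985, 5957 or 6037.

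The arrays separated the groups for most of the called genes. In 5562 of the 7290, or 76.3%, all 9 gliomas lay beyond all 3 forebrains. Over all genes, called or not, the arrays did not overlap in 6168, or 35.7% (17.9% higher and 17.8% lower). A further 1265 called genes had a single glioma within or across the forebrain range, and 463 had 2 or more. The single exceptions were spread unevenly: glioma 8 was the exception in 429 genes, or 33.9%, glioma 5 in 259 and glioma 4 in 203, whereas gliomas 1, 2, 3 and 9 were the exception in 45 to 54 genes each. Counted over every called gene, glioma 8 failed to pass the forebrain range in 8.86% and glioma 2 in 1.67%. Along the mean shift of the called genes, the gliomas lay at 89.07% to 107.9%. That mean is of these same 9 gliomas, so the values centre on it by construction and do not show likeness.

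**Figure D1:**
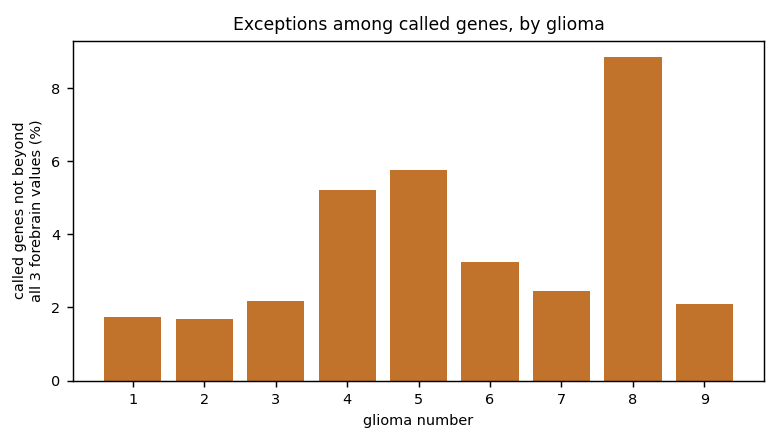
Percentage of the 7290 called genes in which each of the 9 gliomas did not lie beyond all 3 forebrain values, by glioma number. The bars for gliomas 8, 5 and 4 (8.86%, 5.76% and 5.21%) stand above the other 6, which lie between 1.67% and 3.24%.

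The functions were described through 42 gene lists. The number of called members of each list is to be read against the share of all genes called, 21.9% higher and 20.3% lower. The median of a list's differences is to be read against that of all genes. The genes first given for a list are mostly its largest called differences among members whose arrays did not overlap, so a lack of overlap in them was part of the choice, and members with overlap can differ by more. The mean of the members on each array was taken relative to the forebrain mean. By this mean all 9 gliomas lay above all 3 forebrains in 18 lists and below them in 12, and the groups overlapped in the other 12. The highest medians belonged to the interferon-inducible GTPases (2.51), the caspases (1.84) and the PARP family (1.05). The lowest belonged to the calmodulin-dependent kinases and calcineurin (-1.65), the RGS proteins (-1.08) and the vacuolar proton pump (-0.95).

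**Figure D2:**
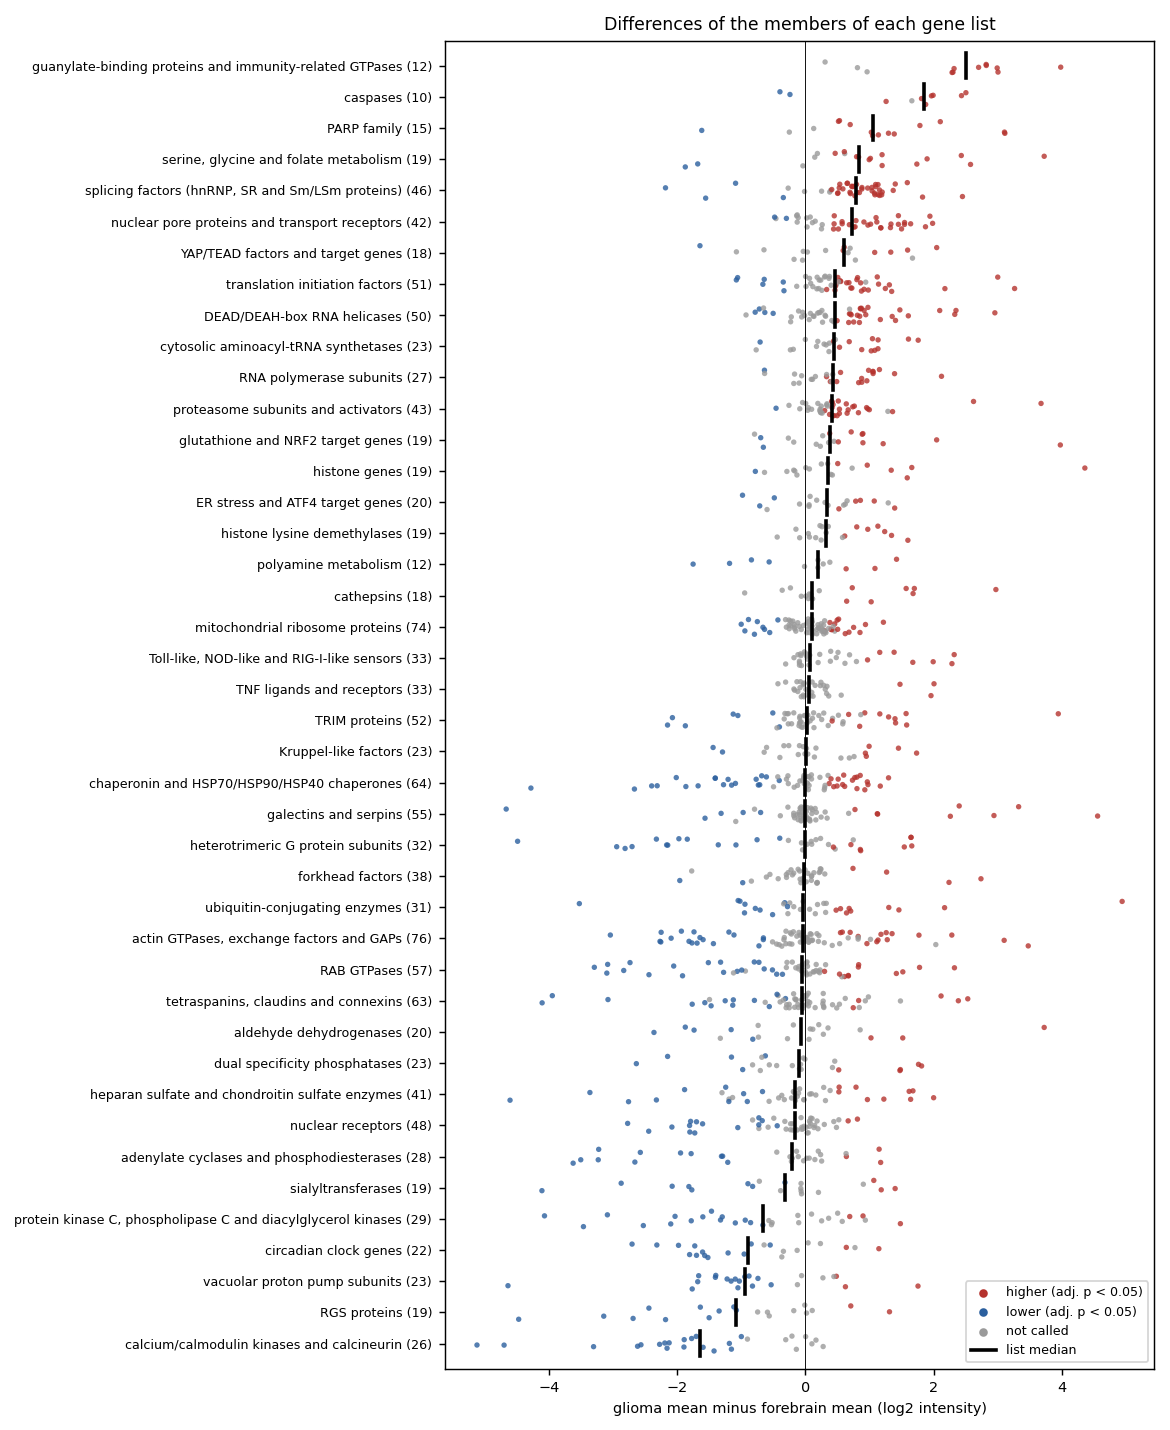
Each point is a measured member of a gene list, placed by its glioma mean minus forebrain mean in log2 intensity. Red points were called higher, blue points lower and grey points not called (limma, adjusted p under 0.05), black bars are list medians, and the number measured follows each name. Medians run from 2.51 for the guanylate-binding proteins and immunity-related GTPases to -1.65 for the calmodulin-dependent kinases and calcineurin.

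**Figure D3:**
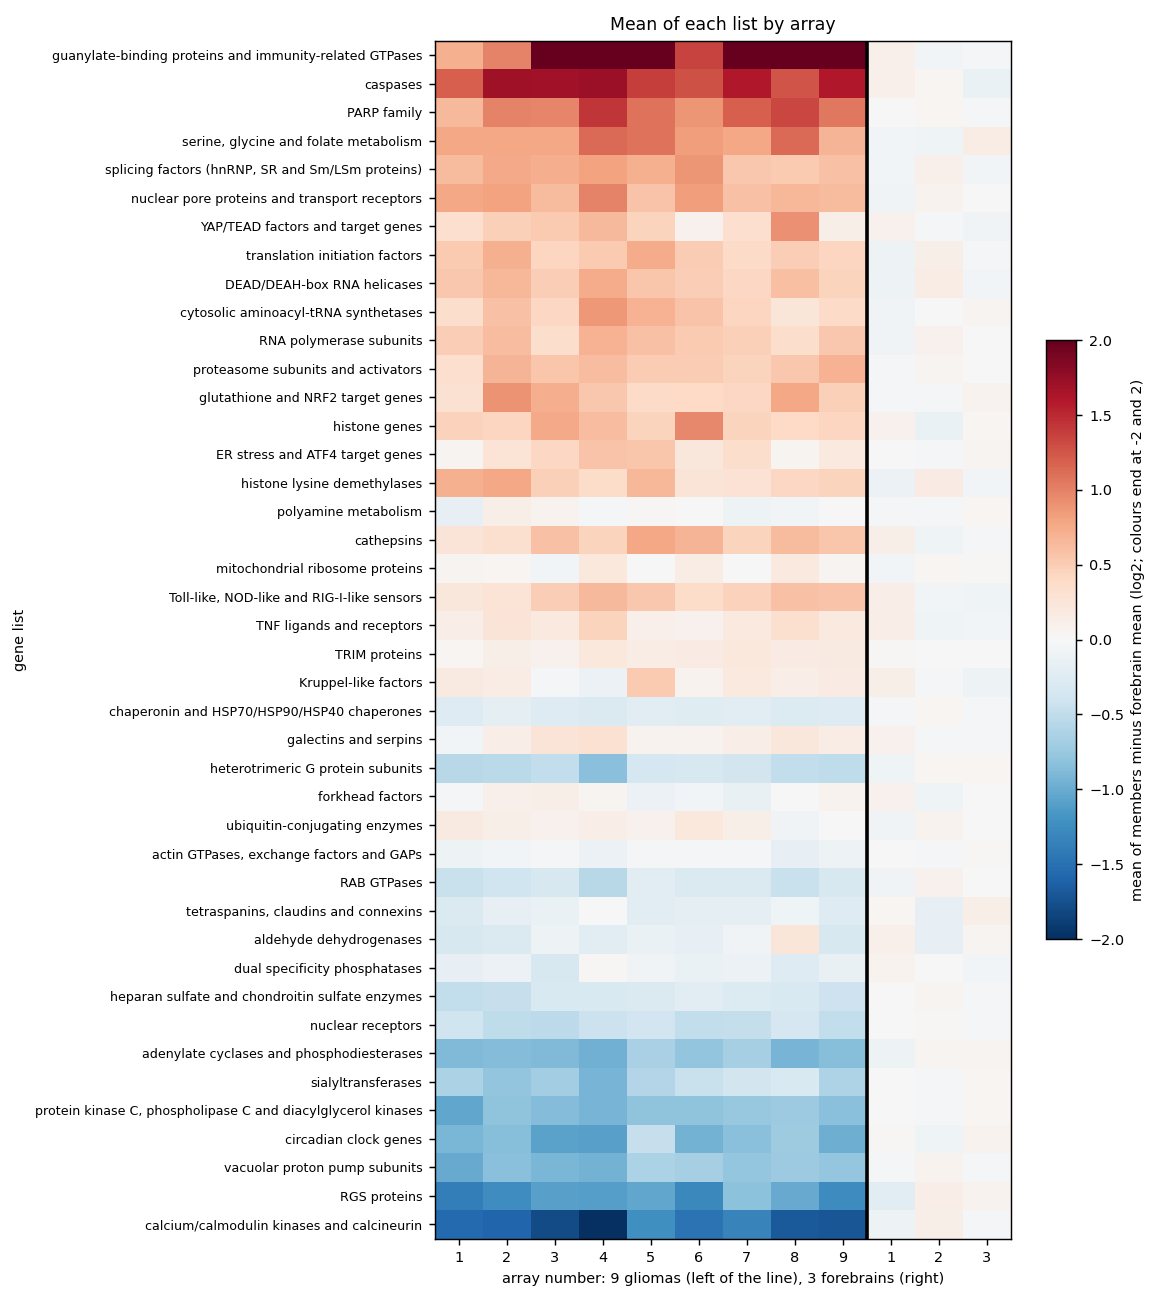
Mean log2 value of each list's members on each array, minus the mean of the 3 forebrains. Columns are the 9 gliomas and 3 forebrains and the colour scale ends at -2 and 2. The row of the guanylate-binding proteins and immunity-related GTPases runs from 0.70 in glioma 1 to 3.87 in glioma 4, while most other rows keep 1 colour across the gliomas.

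The guanylate-binding proteins (GBPs) and immunity-related GTPases (IRGs) are large GTPases that interferons induce and that attack membranes around intracellular pathogens. Of 12 measured members, 9 were higher in glioma and none lower, against 21.9% higher over all genes. Gbp3 read 8.27 to 11.75 in the gliomas, with a median of 10.42, and 6.06, 6.14 and 6.29 in the forebrains. Every glioma lay above every forebrain, and the difference was 3.99 (log2, SE 0.58, adjusted p = 3.43e-06 in limma), or 15.8-fold. Irgm1 read 9.44 to 12.23, with a median of 11.20, against 8.18, 7.98 and 7.94, again without overlap (3.01, SE 0.51, adjusted p = 2.7e-05). The other called members were Tgtp1, Gbp2, Gbp6, Gbp7, Igtp, Irgm2 and Iigp1, with differences of 2.29 to 2.99. Gbp2b (0.81), Gvin1 (0.96) and Gbp8 (0.31) were not called. The mean of the 12 members varied between gliomas. It lay 0.70 above the forebrain mean in glioma 1, 0.99 in glioma 2 and 1.35 in glioma 6, and 3.11, 3.44 and 3.87 above it in gliomas 8, 9 and 4. Members of this family are close in sequence, so their probe sets may not be fully separate.

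The promoters of these genes can be read beside their levels. RefSeq promoter windows on GRCm38.p6, from 250 bases before the start of transcription to 50 after it, were found for 12782 of 16195 named genes. They were searched on both strands for GAAA followed after any 2 bases by a further GAAA, the core of the interferon-stimulated response element, to which STAT and IRF factors bind. Of all genes with a window, 3.57% held the letters in at least 1. Among genes called higher the share was 3.97%, and among genes called lower 3.09%. Of the GBP and IRG genes, 8 had a window and all 8 held the letters, including all 7 with a window that were called higher. Sequences of 5 are printed to show where in the promoter the letters stand, with the match in capitals. The windows, each given 5′ to 3′ on its gene's strand, are chr3:142559794-142560093 (plus strand) for Gbp3, chr3:142530086-142530385 (plus) for Gbp7, chr11:48871371-48871670 (minus) for Irgm1, chr11:58214727-58215026 (plus) for Irgm2 and chr11:58199306-58199605 (plus) for Igtp.
Gbp3: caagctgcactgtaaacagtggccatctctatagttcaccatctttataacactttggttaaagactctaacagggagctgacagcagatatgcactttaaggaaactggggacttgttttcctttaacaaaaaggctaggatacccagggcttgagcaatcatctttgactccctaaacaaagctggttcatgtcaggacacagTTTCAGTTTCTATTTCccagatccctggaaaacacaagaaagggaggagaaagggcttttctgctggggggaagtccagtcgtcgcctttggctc
Gbp7: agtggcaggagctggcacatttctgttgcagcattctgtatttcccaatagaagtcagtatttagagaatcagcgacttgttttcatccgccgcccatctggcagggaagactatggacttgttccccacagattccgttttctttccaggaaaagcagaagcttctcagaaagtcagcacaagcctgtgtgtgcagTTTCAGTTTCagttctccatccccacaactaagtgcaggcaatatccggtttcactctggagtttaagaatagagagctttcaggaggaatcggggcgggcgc
Irgm1: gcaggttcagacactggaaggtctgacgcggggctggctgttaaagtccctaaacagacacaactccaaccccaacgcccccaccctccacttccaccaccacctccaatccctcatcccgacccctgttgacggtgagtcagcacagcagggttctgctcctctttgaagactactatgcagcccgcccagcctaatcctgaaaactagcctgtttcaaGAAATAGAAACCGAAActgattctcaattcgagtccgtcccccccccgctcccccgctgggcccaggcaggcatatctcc
Irgm2: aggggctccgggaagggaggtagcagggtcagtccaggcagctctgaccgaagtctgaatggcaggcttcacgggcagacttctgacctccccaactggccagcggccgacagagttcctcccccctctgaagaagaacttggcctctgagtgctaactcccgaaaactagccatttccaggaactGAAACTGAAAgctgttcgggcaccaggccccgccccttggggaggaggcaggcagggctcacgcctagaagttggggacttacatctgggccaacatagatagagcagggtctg
Igtp: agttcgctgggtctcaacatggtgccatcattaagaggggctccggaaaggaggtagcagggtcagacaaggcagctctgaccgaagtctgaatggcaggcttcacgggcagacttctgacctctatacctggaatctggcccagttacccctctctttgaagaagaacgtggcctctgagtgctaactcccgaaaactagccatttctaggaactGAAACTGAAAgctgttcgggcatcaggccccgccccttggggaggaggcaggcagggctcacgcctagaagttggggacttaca
In all 5 the match begins within 64 bases before the annotated start, and in Gbp3 and Irgm1 a pair of matches overlap. The match is TTTCAGTTTC in Gbp7, the reverse complement of GAAACTGAAA in Irgm2 and Igtp. A match is a description of the letters and not evidence of binding. Among genes called higher in other lists, 3 of 10 TRIM genes with a window held the letters, 1 of 8 PARP genes, 2 of 19 proteasome genes and none of 5 caspases. Differences between lists in these counts were not tested.

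Other interferon-inducible genes were higher as well. Usp18, which removes the ubiquitin-like modifier ISG15 from proteins, read 8.83 to 12.86 in the gliomas, with a median of 11.05, and 6.05, 5.61 and 6.06 in the forebrains. It was 31.2-fold higher (4.96, SE 0.60, adjusted p = 3.27e-07), with no overlap. Trim25, a ubiquitin ligase that activates the RNA sensor RIG-I, was 15.4-fold higher (10.19 to 11.27 against 6.55, 6.99 and 6.62, adjusted p = 1.22e-08). Its values kept within about 1 log2 unit across the gliomas, a narrower range than those of Gbp3 and Usp18. Of 52 TRIM genes 11 were higher and 7 lower, with a median of 0.02. The share higher, 21.15%, lay at the background and the share lower, 13.46%, below it. The mean of the TRIM genes was 0.04 to 0.21 above the forebrain mean in the gliomas, and the forebrains lay between -0.01 and 0.02. Trim3 (-2.08) and Trim66 (-2.15) were the lowest of the called TRIM genes.

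The PARP family adds ADP-ribose to proteins, some members at DNA breaks and others during defence against viruses. Of 15 measured members 12 were higher and 1 lower, with a median of 1.05. Parp12, an interferon-inducible member, read 10.34 to 12.49 in the gliomas and 8.28, 8.50 and 7.66 in the forebrains (3.11, SE 0.32, adjusted p = 4.46e-08). Parp9 read 9.42 to 10.88 against 7.26, 7.46 and 7.29 (3.11, SE 0.44, adjusted p = 2.53e-06). Neither overlapped between the groups. The DNA-repair members Parp1 and Parp2 differed by 1.05 and 0.70. Parp6 was the exception, at 7.71 to 8.52 against 9.63, 9.99 and 9.79 (-1.62, SE 0.27, adjusted p = 2.29e-05).

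Caspases are the proteases of apoptosis and of inflammatory cell death. Of 10 measured, 7 were higher and 2 lower. Casp8, the initiator downstream of death receptors, read 8.91 in glioma 1 and between 9.92 and 10.52 in the other 8 gliomas, against 7.79, 7.65 and 7.41 in the forebrains. The groups did not overlap. Casp6, Casp2, Casp4 and Casp1 were also higher, by 1.26 to 1.97. The 2 lower members, Casp9 (-0.40) and Casp14 (-0.24), were small in difference, and neither was called without forebrain 1.

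Of 33 measured Toll-like, NOD-like and RIG-I-like sensors and adaptors, which detect microbial products and nucleic acids, 7 were higher and none lower. The share higher, 21.21%, lay at the background of all genes, and the median difference was 0.07. Tlr4, the receptor for bacterial lipopolysaccharide, read 6.97 to 9.25 against 6.18, 5.95 and 5.75 (2.32, SE 0.38, adjusted p = 1.61e-05). Ifih1, the cytosolic double-stranded RNA sensor MDA5, was higher by 2.29 (7.75 to 11.24 against 7.35, 7.16 and 7.02, SE 0.52, adjusted p = 0.000689), and its lowest and highest values were those of gliomas 1 and 4. The DNA sensor Cgas and its adaptor Sting1 were higher by 1.68 and 1.99. Among 33 tumour necrosis factor ligands and receptors, 3 were higher and none lower: Tnfrsf12a (2.01), Tnfrsf1a (1.96) and Tnfsf9 (1.48). This share, 9.09%, lay below the background. Microglia and macrophage markers moved with these lists only in part. Their mean was lowest in gliomas 1 (9.57) and 2 (9.75) and highest in gliomas 5 (10.88) and 6 (10.87). In glioma 6 the GBP and IRG mean was among the lower ones (1.35). In glioma 4, where the GBP and IRG mean was highest, the marker mean was 10.20. The part of these markers in the defence lists was not tested.

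**Figure D4:**
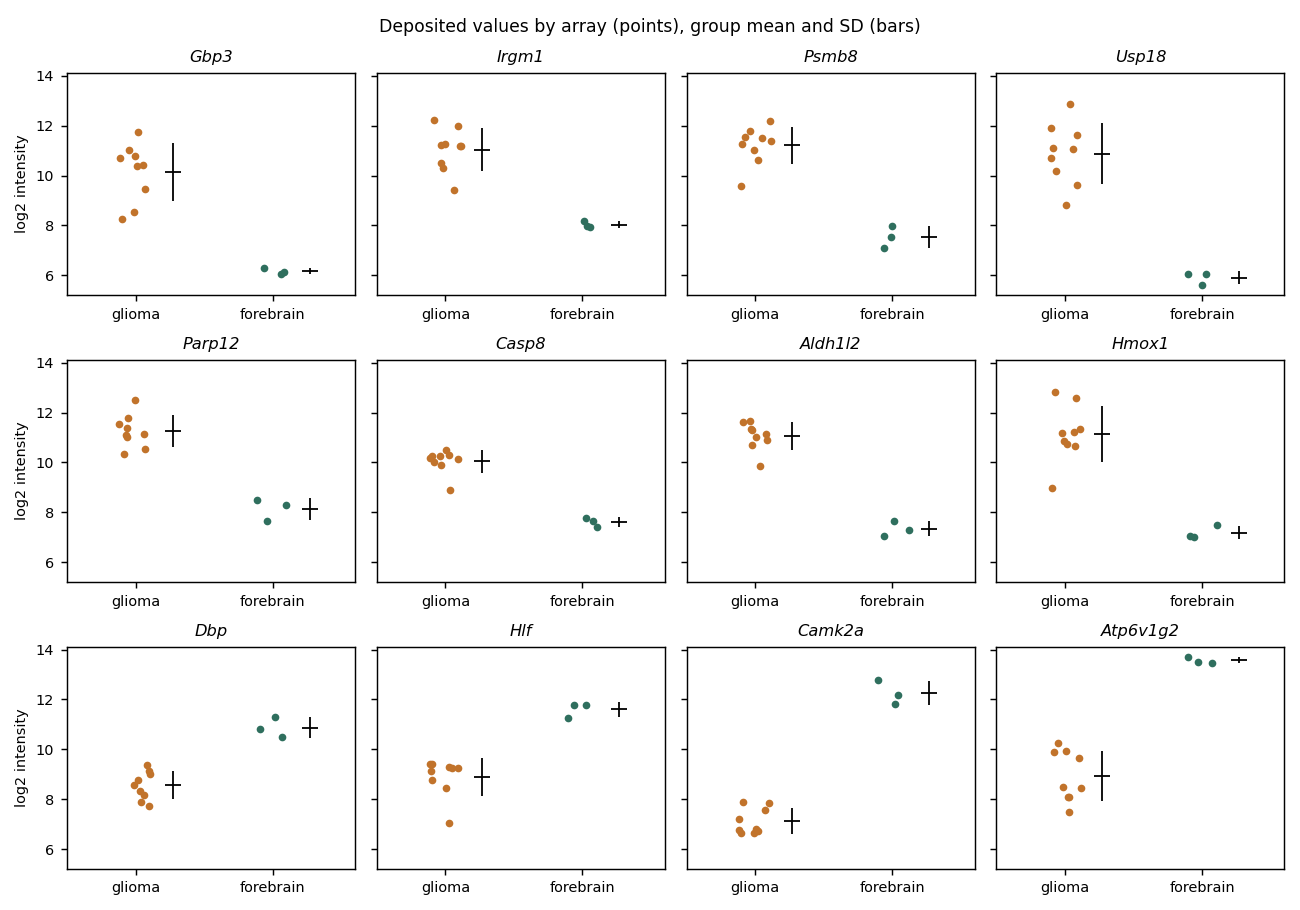
Deposited log2 intensity of 12 named genes on each of the 9 glioma and 3 forebrain arrays (points), with the group mean and SD beside them. Gbp3, Irgm1, Psmb8, Usp18, Parp12, Casp8, Aldh1l2 and Hmox1 lie higher in every glioma than in any forebrain, and Dbp, Hlf, Camk2a and Atp6v1g2 lie lower in every glioma.

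The machinery that makes, splices and exports RNA was higher over many subunits. Of 46 measured splicing factors (hnRNP, SR and Sm/LSm proteins) 37 were higher and 4 lower, with a median difference of 0.78. Lsm2, of the ring that binds U6 RNA, read 10.05 to 11.42 in the gliomas and 8.32, 8.23 and 8.56 in the forebrains (2.45, SE 0.33, adjusted p = 1.43e-06). Lsm5 read 10.46 to 11.36 against 8.93, 9.25 and 9.14 (1.83, SE 0.24, adjusted p = 8.52e-07). The lower members included Snrpn, the form of SmB that replaces the common one in neurons, at 8.52 to 9.60 against 10.39, 11.55 and 11.52 (-2.18, SE 0.43, adjusted p = 0.000173). Its common counterpart Snrpb was higher by 1.13. Srsf12 was also lower (-1.56, SE 0.40, adjusted p = 0.0022), and Hnrnph2 and Hnrnpul2 by 0.35 and 1.09. By the list mean every glioma lay 0.53 to 0.88 above the forebrain mean, and the forebrains themselves ranged from -0.06 to 0.11.

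Of 50 DEAD/DEAH-box helicases, which unwind RNA, 24 were higher and 4 lower (2 without forebrain 2). Ddx21, which acts in ribosome production, read 9.93 to 10.62 in the gliomas and 7.63, 8.12 and 7.86 in the forebrains, a 5.1-fold difference (2.35, SE 0.21, adjusted p = 7.57e-09). The export helicase Ddx39a and the export factor Ddx19a were higher by 2.33 and 2.10. Ddx60, an interferon-inducible helicase, was 7.77-fold higher but spread widely, from 6.24 in glioma 1 to 10.06 in glioma 8, against 5.85, 5.40 and 5.44. Its difference was 2.96 in the brightest probe set and 1.40 in a second (adjusted p = 0.0127). Ddx24 was lower by 0.72 (adjusted p = 0.000414). Among 27 subunits of the RNA polymerases 15 were higher and 1 lower. Polr1e, of the polymerase that makes ribosomal RNA, was higher by 1.39 (8.21 to 9.15 against 7.09, 7.22 and 7.46, SE 0.28, adjusted p = 0.000208). Polr2i ranged from 11.48 in glioma 8 to 14.67 in glioma 2, against 11.07, 11.10 and 11.04 (2.12, SE 0.59, adjusted p = 0.00435). Polr2g was the lower one (-0.64, adjusted p = 0.00154).

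Nuclear pore proteins and transport receptors carry RNA and protein across the nuclear envelope. Of 42 measured, 28 were higher and 2 lower, with a median of 0.72. Nup37 read 9.52 to 10.92 in the gliomas and 8.07, 8.40 and 8.12 in the forebrains (1.98, SE 0.28, adjusted p = 2.86e-06). Nup160, of the same scaffold ring, read 10.21 to 11.05 against 8.32, 8.70 and 8.79 (1.94, SE 0.25, adjusted p = 6.36e-07). The export receptor Xpo1 and the import receptor Kpnb1 were higher by 1.18 and 1.33. The lower ones were Tnpo2 (-0.48) and Kpna6 (-0.30), and neither stayed called without forebrain 3.

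In the translation machinery, initiation factors and the enzymes that charge tRNA were higher in 49.02% and 47.83% of measured members. Of 51 initiation factors and their regulators 25 were higher and 6 lower (3 without forebrain 1), with a median of 0.47. Eif4ebp1, the repressor of cap-dependent translation that mTORC1 phosphorylates, read 10.15 to 11.61 in the gliomas and 7.97, 7.62 and 6.93 in the forebrains, a 9.62-fold difference (3.27, SE 0.43, adjusted p = 9.3e-07). Eif4e2 had probe sets that disagreed: the brightest was higher by 3.00 and a second by 2.06, but another was lower by 0.57 (adjusted p = 0.000995). Eif2ak2, the interferon-inducible kinase PKR, was higher by 2.18. Eif5a2 was lower (8.36 to 9.09 against 9.68, 9.67 and 9.93, -1.06, adjusted p = 0.000458). Of 23 cytosolic aminoacyl-tRNA synthetases and partners, which charge tRNA with amino acids, 11 were higher and 1 lower. Vars read 10.88 to 11.94 against 9.74, 9.55 and 9.72 (1.76, SE 0.23, adjusted p = 1.05e-06), and Eprs was higher by 1.61. Hars was lower by 0.71, a call that was lost after quantile normalization.

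Protein turnover divided by complex. Of 43 proteasome subunits and activators 24 were higher and 1 lower, with a median of 0.42. The inducible catalytic subunits of the immunoproteasome stood far above the rest. Psmb8 read 9.59 to 12.18 in the gliomas, with a median of 11.39, and 7.99, 7.52 and 7.10 in the forebrains (3.68, SE 0.52, adjusted p = 2.61e-06). Psmb9 read 8.57 to 11.58 against 7.72, 7.23 and 6.82 (2.62, SE 0.58, adjusted p = 0.000526). In both genes glioma 1 was lowest and glioma 9 highest, and the groups did not overlap. The remaining inducible subunit, Psmb10, differed by 0.03 and was not called, and the activator Psme1 was higher by 1.00. Psmc5 was the lower one (-0.46), a call lost without forebrain 3.

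Chaperones did not move together: of 64 measured 18 were higher and 19 lower, with a median of -0.003. The subunits of the chaperonin ring, which folds actin and tubulin, were named after their values were seen. All 8 of them (Tcp1, Cct2, Cct3, Cct4, Cct5, Cct6a, Cct7 and Cct8) were higher, by 0.37 to 0.98, while Cct6b, a testis form, differed by -0.03 and was not called. Most of the lower members were J-domain proteins. Dnajc6, auxilin, which strips clathrin from synaptic vesicles, read 6.29 to 8.60 against 11.77, 11.93 and 11.65, a 19.5-fold difference (-4.29, SE 0.47, adjusted p = 9.34e-08). Hspa12a was lower by 2.67. Dnajc24 and Dnajc9 led the higher J-domain proteins with 1.30 and 1.17.

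Of 31 ubiquitin-conjugating enzymes 9 were higher and 10 lower. The shares, 29.03% and 32.26%, stand beside 21.9% and 20.3% over all genes. Ube2c, the partner of the anaphase-promoting complex, read 8.41 in glioma 5 and at least 10.24 in the others, against 5.87, 5.49 and 5.69, a 30.8-fold difference (adjusted p = 8.24e-07). Ube2t, of the Fanconi DNA-repair pathway, was 4.51-fold higher. Ube2ql1 was 11.5-fold lower (8.27 to 10.06 against 12.50, 12.62 and 12.50), and Ube2b was lower by 1.05.

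Some lysosomal enzymes were higher and most subunits of the pump lower. Of 18 cathepsins, the lysosomal proteases, 7 were higher (4 without forebrain 2), none lower and 11 not called. Their median was 0.10, and with array weights 2 were lower. Ctsc read 11.27 to 12.58 in the gliomas and 9.18, 8.97 and 8.67 in the forebrains (2.97, SE 0.40, adjusted p = 1.43e-06), and Ctsz was higher by 1.70. Both were lowest in glioma 1, the glioma in which the mean of the microglia and macrophage markers was lowest. Their part in the cathepsin values was not tested. The vacuolar proton pump acidifies lysosomes and synaptic vesicles. Of 23 measured subunits 16 were lower and 3 higher, with a median of -0.95. The neuron markers, all 12 of them, were lower too, and their part in the pump values was not tested. Atp6v1g2, a neuronal subunit, read 7.47 to 10.25 against 13.47, 13.70 and 13.52 (-4.64, SE 0.53, adjusted p = 1.42e-07). Atp6v1d, present in all cells, read 10.78 to 11.77 against 13.01, 13.37 and 12.97 (-1.77, SE 0.16, adjusted p = 1.22e-08). Atp6v0e went the other way, at 11.96 to 12.93 against 10.81, 10.76 and 10.81 (1.76, SE 0.26, adjusted p = 4.08e-06).

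Serine, glycine and folate metabolism supplies carbon units for nucleotide synthesis. Of 19 measured enzymes 13 were higher and 2 lower (1 without forebrain 1 or 3), with a median of 0.83. The steps from glycolysis to serine were all higher: Phgdh by 1.20, Psat1 by 0.80 and Psph by 1.90. Shmt1, which moves a carbon from serine to folate in the cytosol, read 8.57 to 9.93 in the gliomas and 6.93, 6.44 and 6.54 in the forebrains (2.58, SE 0.30, adjusted p = 2.26e-07). Its mitochondrial relative Shmt2 was higher by 2.43, and Mthfd2, the next mitochondrial enzyme, by 1.74. Aldh1l2, which ends the mitochondrial folate pathway by oxidising formyl-folate, was 13.2-fold higher (9.87 to 11.66 against 7.30, 7.05 and 7.67, adjusted p = 3.35e-07). The cytosolic relative Aldh1l1, an astrocyte marker, was lower by 1.88 (adjusted p = 0.0207), a call that was lost without forebrain 1 or 3 and in the fit to the 12 arrays alone. Mat2b was lower by 1.68 (9.80 to 10.33 against 11.74, 11.83 and 11.71, SE 0.18, adjusted p = 5.46e-08), without overlap.

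Of 20 measured genes of the ATF4 and endoplasmic reticulum stress response, 5 were higher and 3 lower, and without forebrain 3 the number higher was 3. In the fit to the 12 arrays of the set alone it was 9. The main shares, 25% higher and 15% lower, stand beside 21.9% and 20.3% over all genes. Sesn2, an inhibitor of mTORC1 signalling, read 8.81 to 10.10 against 8.29, 8.07 and 8.16 (1.39, SE 0.30, adjusted p = 0.000482). Trib3 (1.07) was called at adjusted p = 0.0481 only narrowly, and the call was lost without any 1 of the forebrains and without 6 of the gliomas. Dnajb9 was lower by 0.71 but not called in the fit to the 12 arrays alone.

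Genes of glutathione metabolism and of the oxidative stress factor NRF2 were higher in 9 of 19 (5 without forebrain 2) and lower in 2. Hmox1, the inducible haem oxygenase, read 8.99 in glioma 5 and up to 12.82 in glioma 2, against 7.48, 7.01 and 7.04, a 15.8-fold difference (3.98, SE 0.72, adjusted p = 5.88e-05). Txnrd1, thioredoxin reductase, was higher by 2.05 in its brightest probe set and by 0.007 in a second, which was not called. The glucose-6-phosphate route to NADPH was higher in G6pdx (0.71) and Pgd (1.21). Fth1, the heavy chain of ferritin, and Gpx4, which reduces lipid peroxides, were lower by 0.70 and 0.66.

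In polyamine metabolism, 3 of 12 genes were higher and 4 lower (25% and 33.33%, against 21.9% and 20.3% over all genes). Odc1, the first enzyme of synthesis, read 10.32 to 11.90 against 9.45, 9.20 and 9.54 (1.42, SE 0.31, adjusted p = 0.000517), and Sat1, the enzyme of breakdown, was higher by 1.08. Sms, spermine synthase, was lower by 1.19 and Azin2 by 1.75. Glioma 8 had the highest Odc1 and the lowest Sms value. Mitochondrial ribosome proteins were higher in 14 of 74 (7 without forebrain 1) and lower in 9, with a median of 0.10. The share higher, 18.92%, lay near the background and the share lower, 12.16%, below it. Mrps28 (1.22) and Mrpl52 (0.94) were highest among these proteins, and Mrps12 (-0.95) and Mrpl41, which was 2-fold lower, lowest. Of 20 aldehyde dehydrogenases 3 were higher (5 without glioma 5) and 5 lower (2 without forebrain 3). These shares, 15% and 25%, stand beside the same background. Aldh18a1, which makes the proline precursor, was higher by 1.52. Aldh1b1 was lower by 0.82, and Aldh1a7 by 1.74, the latter not without forebrain 3.

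Second-messenger genes were lower in several lists, beside the neuron markers, whose mean was 7.31 to 9.54 in the gliomas and 12.29 to 12.51 in the forebrains. Camk2a, given below, is itself among these markers, and the part of the neuron content in these lists was not tested. Of 26 calmodulins, calmodulin-dependent kinases and calcineurin genes 18 were lower and none higher, against 20.3% lower over all genes. Camk2a, the kinase of synaptic plasticity, read 6.64 to 7.87 in the gliomas and 12.19, 12.76 and 11.80 in the forebrains, a 35.0-fold difference (-5.13, SE 0.83, adjusted p = 1.54e-05), with -3.96 in a second probe set. Its broadly expressed relatives were lower too, Camk2g by 1.89 and Camk2d by 1.43. The calmodulin genes Calm2 and Calm3 were lower by 1.00 and 1.16. Camkv, a related pseudokinase, was 26.1-fold lower.

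RGS proteins speed the switching off of G proteins. Of 19 measured 10 were lower and 2 higher, with a median of -1.08. Rgs4 read 7.32 to 9.41, with a median of 7.68, against 12.35, 12.06 and 12.70 (-4.48, SE 0.54, adjusted p = 3.34e-07). Glioma 7 alone lay above 8.26. Rgs8 was lower by 3.15. The higher ones were Rgs19 (0.71) and Rgs1 (1.31, adjusted p = 0.0383), an immune-cell gene. Without forebrain 1 neither was called, and Rgs1 was also lost without forebrain 2 or 3 and without gliomas 4, 5, 7 or 9. Heterotrimeric G protein subunits divided, with 8 of 32 higher and 13 lower. Among the lower ones Gng13 read 6.38 to 8.19 against 11.63, 12.02 and 11.69 (-4.49, SE 0.75, adjusted p = 2.2e-05), and Gnao1 9.68 to 11.03 against 13.17, 13.67 and 13.39 (-2.95, adjusted p = 7e-08). Among the higher ones Gnai3 read 11.03 to 11.65 against 9.68, 9.80 and 9.50 (1.66, SE 0.21, adjusted p = 7.08e-07) and Gng12 11.70 to 12.23 against 10.16, 10.29 and 10.41 (1.65, adjusted p = 8.6e-07).

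Of 28 adenylate cyclases and cyclic nucleotide phosphodiesterases 11 were lower and 3 higher (1 without forebrain 1 or 3). Adcy2 was 12.4-fold lower (7.32 to 8.60 against 11.91, 11.46 and 11.67) and Pde2a 11.4-fold lower (8.57 to 10.55 against 12.94, 13.69 and 12.66). Pde7a was higher by 1.15, with the smallest value, 7.82, in glioma 8. Of 29 protein kinase C, phospholipase C and diacylglycerol kinase genes 15 were lower and 3 higher (1 without forebrain 2). Dgkg, a diacylglycerol kinase, was 11.1-fold lower. Plcg2, of immune-cell signalling, was higher by 1.48 (adjusted p = 0.00982).

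Dual specificity phosphatases, many of which switch MAP kinases off, were higher in 5 of 23 and lower in 5. Each share, 21.74%, lay near the background of all genes. Dusp6, which dephosphorylates ERK and is induced by it, read 12.47 to 14.30 against 11.94, 11.72 and 11.31 (1.76, SE 0.30, adjusted p = 2.58e-05), lowest in glioma 4. Dusp16 was higher by 1.81. Dusp14 (-2.64) and Dusp22 (-0.63) were lower.

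A group of small GTPases shapes the actin skeleton. Of 76 GTPases, exchange factors and activating proteins 15 were higher and 18 lower, shares near the background of all genes. Among them Rhoj read 9.97 to 11.83 in the gliomas and 6.79, 7.12 and 7.15 in the forebrains, an 11.1-fold difference (3.48, SE 0.46, adjusted p = 9.81e-07). Rhoc read 11.49 to 12.82 against 8.71, 9.02 and 9.03, an 8.59-fold difference (3.10, SE 0.43, adjusted p = 1.73e-06). Arhgap44 (-3.05) and Rhov (-2.27) were lowest. RAB GTPases, which label membrane compartments, were higher in 11 of 57 and lower in 19. The share higher, 19.3%, lay near the background and the share lower, 33.33%, above it. Rab31 read 10.99 in glioma 4 and at least 12.11 in the others, against 9.85, 9.74 and 10.28 (2.33, SE 0.29, adjusted p = 4.13e-07), and Rab34 was higher by 1.78. The synaptic vesicle protein Rab3a was 8.58-fold lower and Rab40b 9.82-fold.

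At the cell surface, sialyltransferases, which cap glycans and gangliosides, were lower in 8 of 19. They were higher in 3, a number that fell to 1 without any single forebrain. St6galnac5 read 8.24 in glioma 8 and 5.91 to 6.61 in the others, against 10.67, 11.58 and 9.47 (-4.11, SE 0.64, adjusted p = 9.66e-06). St8sia3 was 7.35-fold lower. St8sia1, which makes ganglioside GD3, was higher by 1.07 (adjusted p = 0.0423), and this call was lost without any 1 of the forebrains and without gliomas 1, 5, 6, 7 or 9. Enzymes of heparan and chondroitin sulfate were higher in 9 of 41 (5 without forebrain 2) and lower in 10. The shares, 21.95% and 24.39%, lay near the background of all genes. Hs3st2 was 24.5-fold lower (6.16 to 7.95 against 11.50, 10.86 and 11.29) and Chst1 10.3-fold. Chst7 was higher by 2.00, with its highest value, 11.50, in glioma 8. Chst5 (1.68, adjusted p = 0.0447) was not called without any 1 of the forebrains or without gliomas 3, 4, 6, 7 or 9.

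Tetraspanins, claudins and connexins gave 5 higher (3 without forebrain 2) and 13 lower of 63. The share higher, 7.94%, lay below the background and the share lower, 20.63%, at it. The connexins of astrocytes, Gja1 and Gjb6, were lowest. Both are themselves among the astrocyte markers, 8 of 11 of which were lower, so the markers are no separate reading of them. Gja1, connexin 43, read 11.22 in glioma 8 and 6.22 to 8.89 in the others, against 11.94, 11.90 and 12.27 (-4.11, SE 0.62, adjusted p = 6.17e-06). Gjb6, connexin 30, was 15.5-fold lower (5.76 to 7.97 against 10.59, 10.09 and 10.83). Tspan6 read 11.81 to 12.74 against 9.39, 9.90 and 9.83 (2.53, SE 0.31, adjusted p = 4.41e-07), and Cd9, of glial progenitors and other cells, was higher by 2.39. Of 55 galectins and serpins 8 were higher and 5 lower (2 without forebrain 1 or 3). Both shares, 14.55% and 9.09%, lay below the background. Lgals3, a galectin of macrophages and tumour cells, read 9.85 to 12.47, with a median of 11.52, against 7.16, 6.96 and 6.33, a 23.6-fold difference (adjusted p = 1.88e-06). Lgals9 was higher by 3.33, lowest in glioma 1 and highest in glioma 4. Serpini1, neuroserpin, was 25.5-fold lower (7.07 to 9.42 against 13.35, 13.09 and 12.51). Serpinb1b was lower by 1.57, a call lost without forebrain 1 or 3.

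Among nuclear regulators, clock genes were mostly lower: 13 of 22 were lower and 2 higher, with a median of -0.90. The clock runs on a loop in which CLOCK and ARNTL switch on their own repressors PER and CRY and a set of output factors. The output factors of the PAR bZIP family were all lower. Hlf read 7.06 in glioma 4 and 8.46 to 9.43 in the others, against 11.78, 11.24 and 11.78 (-2.71, SE 0.44, adjusted p = 1.48e-05). Dbp read 7.72 to 9.36 against 10.51, 10.80 and 11.31 (-2.32, SE 0.38, adjusted p = 1.97e-05), and Tef was lower by 1.21. Of the activators, Arntl was lower by 1.98 and Npas2 by 0.96, whereas Clock (-0.34, adjusted p = 0.14) was not called. The repressors Nr1d1 and Nr1d2 were lower by 1.73 and 1.81. Cry2 was lower by 1.52 and Cry1 was higher, at 9.15 to 10.45 against 8.62, 8.70 and 8.51 (1.15, SE 0.24, adjusted p = 0.000373). Per1 (-0.65) and Per2 (-0.37) were not called. By the list mean glioma 5 stood nearest the forebrains (-0.46) and glioma 4 farthest (-1.09). The hour at which tissues were taken is not in the labels, and neuron markers moved the same way, so the part of either in these values was not tested.

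Nuclear receptors, the hormone-binding transcription factors, were lower in 14 of 48 and higher in 2 (1 without forebrain 1 or 2). The share lower, 29.17%, includes Nr1d1, Nr1d2, Rora and Rorb, which are counted among the lower clock genes as well. The receptors for aldosterone and progesterone were lower: Nr3c2 read 6.39 to 8.46 against 10.14, 10.39 and 9.19 (-2.78, SE 0.54, adjusted p = 0.000139) and Pgr 6.05 to 6.51 against 8.88, 8.52 and 8.77 (-2.45, SE 0.57, adjusted p = 0.000858). Nr2c1 was higher by 0.81, but not without forebrain 1 or 2. Forkhead factors were higher in 4 of 38 and lower in 2, below the background. Foxm1, a driver of mitotic genes, was 4.73-fold higher (7.87 in glioma 5 to 10.75 in glioma 2, with no forebrain above 7.24), and Foxp1 3.9-fold lower. Foxn2 (1.27) was higher and Foxp4 (-0.98) lower.

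Kruppel-like and SP factors were higher in 5 of 23 (8 without glioma 4) and lower in 2. The share higher, 21.74%, lay at the background and the share lower, 8.70%, below it. Klf3 read 10.31 in glioma 4 and up to 12.73 in glioma 5, against 9.94, 10.03 and 9.95 (1.74, SE 0.30, adjusted p = 3.18e-05), and Sp1 was higher by 1.45. Klf16 was lower by 1.29. Of 19 histone lysine demethylases and relatives 7 were higher and none lower. Kdm2b read 10.71 to 11.63 against 9.60, 9.86 and 9.66 (1.60, SE 0.20, adjusted p = 3.82e-07), and Kdm1b was higher by 1.34. Histone genes could be read only in part, since 19 of 80 were measured and their copies are nearly identical, so that a probe set may report several. Of these 6 were higher and 1 lower. The probe set of H2ac23 read 13.64 to 14.75 against 9.52, 9.84 and 9.53, a 20.6-fold difference (adjusted p = 8.63e-07). That of H2az2 was higher by 1.66, but a second one by 0.12 and not called.

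YAP and TEAD, the transcription factors of the Hippo pathway, and their targets were higher in 6 of 18 and lower in 1. Nt5e, the enzyme that makes adenosine at the cell surface, read 9.06 to 10.34 against 7.13, 7.81 and 7.65 (2.05, SE 0.38, adjusted p = 7.19e-05). Tead2 was higher by 1.59 (adjusted p = 0.0323), with 10.68 in glioma 8 and 7.25 in glioma 9. Its call was lost without glioma 8 (1.35), without glioma 3 or 4, without any 1 of the forebrains and in the fit to the 12 arrays alone. Arhgef17 was lower by 1.65 in its brightest probe set, while a second (-0.21) was not called.

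Many proteins exist in a form used by most cells and a form used mainly in the nervous system, each from its own gene. A list of 35 pairs, with 1 gene of each listed as broad and the other as neural, held 30 in which both were measured. These labels were not checked here, and a gene listed as neural can also serve other tissues, such as muscle. In 13 the broad gene was higher and the neural one lower, in 8 the broad gene was not called and the neural one lower, and in 6 both were lower. In none were both higher. Over the 30 pairs 15 broad genes were higher and 6 lower, while 1 neural gene was higher and 27 lower, and the median differences were 0.35 and -1.86. In 28 pairs the broad gene's difference lay above that of its neural relative. In 24 pairs this held array by array: the broad value minus the neural one was larger in all 9 gliomas than in any forebrain. The pairs include genes of the synapse, and the neuron markers moved with the neural members. Snap25 is itself a neuron marker and Aldoc an astrocyte marker. The part of the neuron content in the pairs was not tested.

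**Figure D5:**
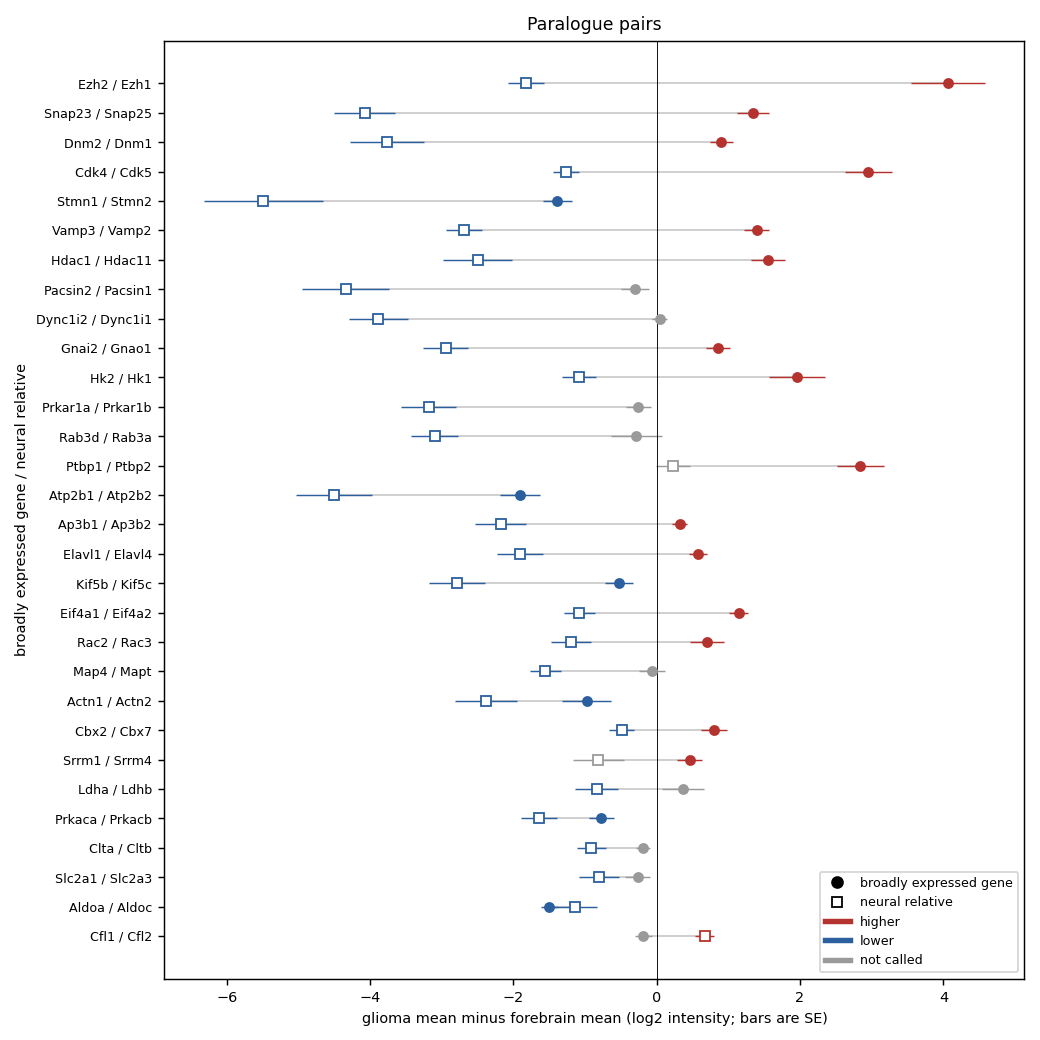
Glioma mean minus forebrain mean (log2 intensity) of the gene listed as broad (circle) and the gene listed as neural (open square) in each of 30 pairs. Bars are the SE of the fit. Red marks were called higher, blue lower and grey not called. The circle lies to the right of the square in 28 pairs, and the exceptions are Aldoa and Aldoc and Cfl1 and Cfl2.

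The pairs covered several functions. In membrane fusion, Snap23 read 8.14 to 9.27 in the gliomas and 7.01, 6.97 and 7.26 in the forebrains (1.34, SE 0.22, adjusted p = 1.83e-05). Its synaptic relative Snap25 read 6.33 to 9.28 against 11.48, 11.99 and 11.78 (-4.08, SE 0.43, adjusted p = 5.33e-08). Each gene separated the groups, in opposite directions. Vamp3 and Vamp2 differed by 1.39 and -2.69, and the membrane-cutting dynamins Dnm2 and Dnm1 by 0.90 and -3.77. In translation the helicases Eif4a1 and Eif4a2, which serve the same step, differed by 1.14 and -1.08. Eif4a1 read 13.23 to 13.78 against 12.17, 12.47 and 12.19, and Eif4a2 12.19 to 13.66 against 13.94, 14.22 and 14.18. In glucose use, hexokinase Hk2 read 9.24 to 10.84 against 7.94, 8.03 and 7.93 (1.96, SE 0.39, adjusted p = 0.000195) and Hk1, the main form in brain, 10.07 to 10.95 against 11.70, 11.79 and 11.73 (-1.09, SE 0.24, adjusted p = 0.000475).

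In the nucleus, Hdac1 and Hdac11 differed by 1.55 and -2.50, the kinases Cdk4 and Cdk5 by 2.95 and -1.27, and the histone methyltransferases Ezh2 and Ezh1 by 4.06 and -1.82. The other 3 probe sets of Ezh1 gave -1.01, -0.91 and -0.69. The splicing regulators Ptbp1 and Ptbp2 went another way. Ptbp1, which is switched off when neurons form, read 12.15 to 12.87 against 9.75, 9.64 and 9.70, a 7.16-fold difference (2.84, SE 0.33, adjusted p = 2.07e-07). Ptbp2, its relative in young neurons, was not called (0.23, SE 0.23, adjusted p = 0.475), since glioma 8 read 10.78 and the others 11.96 to 12.81, against 11.81, 12.23 and 11.77. Without glioma 8 it was higher by 0.40 (adjusted p = 0.0304). Srrm4, the neuronal splicing activator, read 6.22 to 6.58 against 7.24, 7.21 and 7.30, with no overlap, but was not called (-0.81, adjusted p = 0.0629). In the fit to the 12 arrays alone it was called.

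A few pairs ran against the rest. The aldolases Aldoa and Aldoc were both lower, by 1.50 and 1.14, with Aldoa at 12.93 to 13.78 against 14.75, 15.12 and 14.87. The cofilins held the only higher gene among those listed as neural, Cfl2 (0.67, SE 0.13, adjusted p = 0.000182 in limma). Cfl1 was not called (-0.19). Cfl2 read 11.44 in glioma 4 and at least 11.93 in the others, against 11.18, 11.14 and 11.54. The stathmins Stmn1 and Stmn2 were both lower, by 1.38 and 5.49. The calls of Rac2, Srrm1, Ap3b1, Kif5b, Ldhb, Slc2a3, Cbx7 and Actn1 were each lost when at least 1 forebrain was left out, which leaves 2 in that group. The difference kept its direction in each: that of Srrm1 was 0.46 over all arrays and 0.42 to 0.52 without a forebrain, and that of Actn1 -0.98 over all arrays and -0.88 to -1.08 without a forebrain. That of Kif5b was lost without gliomas 4, 6 or 8 and in the fit to the 12 arrays alone, and that of Srrm1 without glioma 2.

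The lists of division and synapse genes, unnamed features and provisional gene models were left out next. Of the other genes whose arrays did not overlap, those with the largest differences were of mixed function. Hmga2, a chromatin protein of embryonic cells, read 9.70 to 11.21 in the gliomas and 5.54, 5.18 and 5.33 in the forebrains, 30.7-fold higher. Vim, the intermediate filament vimentin, read 13.36 to 14.33 against 9.51, 9.39 and 8.83 (4.50, SE 0.25, adjusted p = 9.07e-13). Igfbp3, which binds insulin-like growth factors, was 22.4-fold higher, Hmgb2 33.4-fold and Dbf4, the activator of a replication kinase, 31.9-fold. Hoxa5, a homeobox gene of the trunk, read 9.55 to 12.35 against 6.74, 5.71 and 5.52, and its highest value was that of glioma 8. Nxf3, related to RNA export factors, read 5.85 in glioma 8 and 10.27 to 13.29 in the others, against 5.27, 5.34 and 4.97. Its difference was 6.43 (86.2-fold), and 7.15 (142-fold) without glioma 8. Prm1, the sperm protamine, read 10.79 to 12.83 against 4.15, 10.01 and 3.95, so forebrain 2 lay near the gliomas. Its 47.9-fold difference became 190-fold without forebrain 2, and 24.9-fold and 23.2-fold without forebrain 1 and 3.

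At the other end the same lists and features were left out, and the lists hold Stmn2 and Camk2a. Sphkap, an anchor of protein kinase A, was lowest of the remaining genes without overlap (5.67 to 8.45 against 12.15, 12.34 and 11.81, 44.5-fold). Itpka, an inositol phosphate kinase of dendritic spines, read 5.80 to 7.39 against 11.57, 11.98 and 11.07, 35.8-fold lower. Lin7b, a synaptic scaffold protein, was 33.4-fold lower and kept a narrow range of 6.35 to 7.21 against 11.56, 11.88 and 11.66. The exchange factors Rasgrf1 and Rasgef1a were 29.5-fold and 29.4-fold lower. For Rasgrf1 this is a difference of -4.88 in the brightest probe set, against -1.47 in a second (adjusted p = 0.027). Pgm2l1, the enzyme that makes glucose-1,6-bisphosphate in brain, was 26.9-fold lower. Spock1, Nrsn1 and Tmem130 were lower by 5.42, 5.08 and 4.88, Spock1 by 3.19 in a second probe set. Etl4 was lower by 4.93 in its brightest probe set but by 0.16 in a second, which was not called. By the gap between the groups, Ralyl, Phyhip and Clstn2 joined Itpka and Lin7b among the 5 widest lower genes, with differences of -4.55, -4.73 and -4.35, and H2ac23, Hmgb2, Dbf4, Hmga2 and Vim were the 5 widest higher ones.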

How the data were processed

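Per the labels' protocols, biotin-labelled RNA was hybridised to Affymetrix mouse genome arrays. The table that the authors deposited holds log2 values, already normalized, of 18328 custom probe sets. The method of summary and normalization is not named in the labels or file headers. Probe sets were named through RefSeq (GRCm38.p6): 17226 matched 1 gene, 785 several and 317 none. The brightest probe set per gene, by the mean over all 32 arrays, was kept, which left 17297 features, here called genes. Levels are not compared between genes. Medians of the arrays compared here ran from 8.48 to 8.57, and those of the other set from 6.90 to 7.06. The number of arrays limits precision.

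In limma 3.58.1 (R 4.3.3; lmFit, eBayes) all 32 arrays entered 1 linear model of 6 group means, which therefore share a spread. The arrays of the other set lie on another scale, and a fit to the 12 arrays alone was an alternative. Tests are two-sided, with Benjamini-Hochberg adjustment over all genes. Figures were drawn with Python 3.11.15 and matplotlib.

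Named genes were, per list and direction, the 2 called members with the largest differences among those whose arrays did not overlap (with overlap only where a list had no others), the members of the paralogue pairs, and the 10 highest, 10 lowest and 5 widest gaps each way among called genes without overlap. The 10 highest, 10 lowest and 5 widest gaps leave out the division and synapse lists, unnamed features and provisional gene models. Other members are given as ranges or as examples of a role, and Sox10, Pdgfra, Nf1 and Trp53 were added. A few genes, and 1 pair, are not reported here. The comparison, lists, pairs, markers and named genes were chosen with earlier results of these data known. Alternatives were normalization, low-value filter, probe sets, array weights, thresholds, a block and leaving out each array.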

Additional observations from a re-analysis of the deposited data

Results flagged for a closer look

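Among the named genes, those were marked in which 1 of the 9 gliomas stood apart: the gap between the highest or lowest glioma and its nearest neighbour, divided by the range of the 9, exceeded Dixon's critical value for 9 samples. This rule marks about 1 in 20 groups by sampling alone. It marked 26 of 223 named genes (11.66%) and 11.39% of all genes, so the named genes were marked about as often as the rest. The glioma that stood apart is given with the ratio, and no explanation was tested.

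Glioma 8 stood apart most often. It was highest for Odc1 (ratio 0.621), Aldh1a7 (0.539), St6galnac5 (0.698), Hoxa5 (0.538), Lin7b (0.571) and Snap23 (0.640). It was lowest for Sms (0.499), Pde7a (0.535), Nxf3 (0.595), Ptbp2 (0.581), Uchl1 (0.628), Pdgfra (0.648) and Sox10 (0.747). Glioma 4 was lowest for Rab31 (0.544), Hlf (0.591), Ldhb (0.50), Cfl2 (0.711) and Kpna1 (0.504). Glioma 5 was lowest for Ube2c (0.504) and Cdk4 (0.494), both of the cell cycle, and highest for Sat1 (0.547) and Atp2b1 (0.546). Glioma 7 was highest for Rgs4 (0.550) and Hs3st2 (0.519), glioma 1 lowest for Casp8 (0.627), and glioma 6 highest for H2ac23 (0.542).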

How the results depend on the processing

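The numbers of called genes (7290, higher 3783, lower 3507) stayed within 1.5 times in every alternative that was run: 7741 in the fit to the 12 arrays alone, 7290 with arrays centred on their medians, 7866 after quantile normalization, 6974 without the lowest 25% of genes, 7681 over all probe sets, 9097 with array weights and 5433 at an adjusted p under 0.01. Leaving out 1 array gave 5957 to 7411 calls. Without a forebrain 80.55% to 81.44% of the 7290 genes were still called, and without a glioma 96.08% to 97.02%. No called gene was called in the other direction, and no named gene reversed. Of the named genes, 18 lost their call when some array was left out, as stated beside them, and 22 in some alternative other than the stricter threshold. Of 84 list counts, 50 stayed within 1.5 times throughout. Of the others, 17 moved with array weights, 15 with the replicate block, 14 at an adjusted p under 0.01, 10 to 12 without a forebrain and up to 5 without a glioma. With array weights the higher calls rose to 8 of the tumour necrosis factor list and 22 of the mitochondrial ribosome, and the lower calls to 10 of the dual specificity phosphatases. With the block 12 tetraspanins, claudins and connexins were higher. Gliomas and forebrains share the numbers 1 to 3. The deviations of same-numbered arrays correlated at 0.049, 0.0194 and 0.0666, in each case the highest among these 3 numbers but under 0.1, so the numbers were not taken as pairs. With a replicate block in the fit to the 12 arrays, 7749 genes were called, and 87.85% of the 7290 were still among them. Ifih1 (1.28, adjusted p = 0.069) and Polr2i (1.82, adjusted p = 0.0665) were not called in that fit. How the authors normalized the intensities limits every level, and with 3 forebrains small differences depend on single arrays.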

Other observations

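Some neural genes had a broadly expressed relative that was not measured here, and are given alone. Eno2, neuronal enolase, read 7.41 in glioma 1 and up to 10.93 in glioma 7, against 13.89, 14.01 and 14.22 in the forebrains, 26.5-fold lower. Eef1a2, the elongation factor of neurons and muscle, read 9.67 to 12.42 against 14.47, 14.66 and 14.68, and Fabp3, a fatty acid binding protein, 7.37 to 8.69 against 11.89, 11.92 and 11.85. Both separated the groups, with 11.5-fold and 13.5-fold lower means in glioma. Uchl1, a deubiquitinase of neurons, was 2.29-fold lower, and Kpna1 was not called (adjusted p = 0.0953).

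Other motifs were counted in the promoter windows on both strands, as descriptions. The letters TGATGCAA are the core to which ATF4 binds at amino acid response elements. They stood in 0.782% of all genes with a window and in 4 of 16 aminoacyl-tRNA synthetase genes. In the ATF4 and stress list they stood in 4 of 19 genes, and in serine, glycine and folate metabolism in none of 17. The E-box letters CACGTG, to which CLOCK and ARNTL bind, stood in 10.5% of all genes with a window and in 5 of 19 clock genes.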
